A study of Cardamine sp. SIM-2007 with 7 samples.

Results

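The chloroplast genome of flowering plants still encodes core subunits of the photosynthetic machinery, and transcripts of 43 such genes were measured in Cardamine kokaiensis, a wild crucifer related to Arabidopsis that forms both closed and open flowers. The set was a list of 44 plastid psa, psb, pet, atp and ndh genes and rbcL, matched by name to probe sets that the platform annotation assigns to a single gene. Of the 44 genes, 43 matched, each to 1 probe set, and ndhB did not, because its probe set carries the symbol of both of its gene copies. The table held 22746 tested probe sets, and no filter on low values was applied, so all 43 genes entered the fit.

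CL arrays carried RNA of primordia bound to form cleistogamous flowers, which stay closed and self-pollinate, after 28 days of chilling following germination. INT arrays carried RNA of primordia of the kind the submitters called intermediate, after 14 days of chilling following germination. CH arrays carried RNA of primordia bound to form chasmogamous flowers, which open, after 14 days of chilling before germination. All groups were of 1 species, and flower type changed together with the chilling regime, so that their effects cannot be told apart. Each flower type had 2 biological replicates, each from 160 pooled primordia of first inflorescences, hybridized to Arabidopsis ATH1 arrays, and 1 further array carried genomic DNA from leaves of plants without chilling.

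Photosystem II splits water with light energy, the cytochrome b6f complex passes electrons on, and photosystem I lifts them to ferredoxin. The ATP synthase uses the proton gradient this builds, the NDH complex returns electrons from ferredoxin to the plastoquinone pool, and Rubisco fixes carbon dioxide. Plastid genes are mostly transcribed in groups, and the core photosynthesis genes depend largely on the bacterial-type plastid RNA polymerase. In young floral primordia plastids are still developing from proplastids. The same complexes need nuclear subunits, which are made outside the organelle.

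The annotation of these probe sets was checked by their brightness with genomic DNA, since leaf cells hold many copies of the plastid genome. On the 1 genomic DNA array all 43 lay above the median of all tested probe sets, which was 8.63 on the log2 scale, and 40 lay above the 99th percentile of 11.76. The 3 below that percentile were petL (11.46), psbT (11.52) and ndhF (10.09). Intensities of different probe sets depend on how well Arabidopsis probes bind Cardamine sequence, so levels were compared only within a gene. RNA signal was weak for ndhF, whose deposited intensities were 75.6 and 4.43 in CL, 12.2 and 5.41 in INT, and 10.2 and 8.98 in CH. On 5 of the 6 arrays this was under the offset of 28.2 added before taking logarithms, and ndhJ was under it on 2 arrays. Differences of these 2 genes are thus shrunk by the offset and rest on weak signal. ndhH was just above the offset on CL replicate 1 (32.1), INT replicate 2 (36.9) and CH replicate 2 (29.6), so the same caution holds for it.

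Of the 43 genes, 35 had a higher mean in CL than in CH, against 49% of all probe sets, and the median difference was 0.38 log2 units, against -0.01 over all probe sets. Between INT and CH, 22 of 43 had a higher mean in INT, against 49.2% of all probe sets, with a median difference of 0.01. Between CL and INT, 36 of 43 had a higher mean in CL, against 50.2% of all probe sets, with a median difference of 0.36. These comparisons share arrays, so they are not independent of each other. In pooled primordia fewer plastid-bearing cells, fewer plastids per cell and less RNA per plastid cannot be told apart. A difference between arrays in RNA quality or labelling cannot be told apart from these either. limma called 0 of the 43 genes in CL against CH, INT against CH or CL against INT at an adjusted p under 0.05, where percent called over all probe sets was 0% in each. At an unadjusted p under 0.05 limma counted 1 gene in CL against CH (3.53% of all probe sets), 0 genes in INT against CH (4.76%) and 2 genes in CL against INT (4.4%). The 95% interval of a difference had a median half-width of 0.995 log2 units over the 43 genes, which limits what 2 arrays per flower type could show.

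The count in CL against CH depended on more than 1 single array, CH replicate 2 and CL replicate 1 among them. Without CH replicate 2, 23 of the 43 genes had a higher mean in CL and the median difference was 0.03, and without CH replicate 1 the median difference was 0.59. Without CL replicate 1 the count was 25 and the median 0.14. In INT against CH, the count of 22 became 12 without INT replicate 1 and 12 without CH replicate 2, with medians of -0.25 and -0.29. The INT minus CH median was 0.15 without INT replicate 2 and 0.32 without CH replicate 1. In CL against INT the count stood at 24 with CL replicate 1 left out, at 25 with INT replicate 2 left out and at 42 with INT replicate 1 left out, and the medians were 0.05, 0.11 and 0.64.

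**Figure D1:**
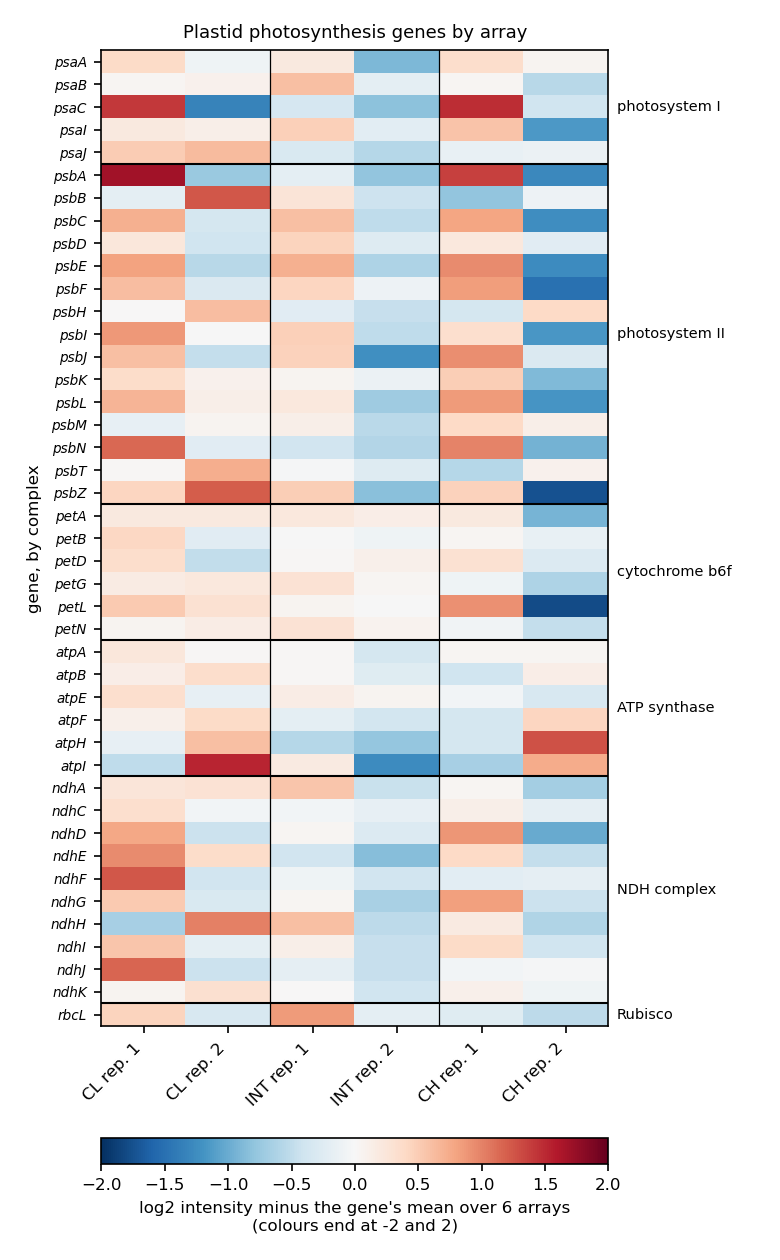
Log2 intensity of each of the 43 genes (rows, by complex) on each RNA array (columns), as the difference from that gene's own mean over the 6 arrays. CH replicate 2 was the lowest array for 20 genes and INT replicate 2 for 14, while psbB, psbT, psbH, atpF, atpH and atpI stood higher on replicate 2 than on replicate 1 in CL and in CH.

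The 2 arrays of a flower type also differed from each other in these genes. Given as the median over the 43 genes of the deviation from the gene's 6-array mean, replicate 1 and replicate 2 stood at 0.36 and 0.06 in CL, at 0.11 and -0.42 in INT, and at 0.20 and -0.40 in CH. INT replicate 2 and CH replicate 2 were thus the 2 low arrays, and neither CL array was low. CH replicate 2 gave the lowest value of the 6 arrays for 20 of the 43 genes, against 15.4% of all probe sets. INT replicate 2 gave the lowest value for 14, against 17% of all probe sets, and the highest for 0, against 16.9%. The gap between the CH arrays exceeded the CL minus CH difference in 34 of 43 genes, and the gap between the CL arrays did so in 29. Over all probe sets these shares were 64.2% and 65.2%, so the 29 genes were near the share over all probe sets. A gap between 2 single arrays varies more by construction than a difference between means of 2 arrays.

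Replicate 1 was above replicate 2 in all 3 flower types for 22 of the 43 genes, against 15.2% of all probe sets, and below it in all 3 for 0 genes, against 13.1%. The labels do not say that equal numbers mark a shared day or batch. In INT 42 of the 43 genes were higher on replicate 1, in CH 32 and in CL 26, against 49.2%, 51.7% and 53.1% of all probe sets. In every flower type, replicate 1 also gave the stronger signal for 25S ribosomal RNA, a control on the array. Naming replicate 1 first, the intensities were 1823 and 392.9 in CL, 1961 and 629.6 in INT, and 2652 and 145.9 in CH. A weaker control for 5S ribosomal RNA was also higher on replicate 1, at 24.2 and 12.8 in CL, 67.2 and 32.4 in INT, and 68.7 and 14.3 in CH. The 25S control and the 43 genes ranked the arrays alike only in part. CH replicate 2 was lowest for the 25S control and the lowest array for 20 of the 43 genes. The 25S control was lower on CL replicate 2 than on INT replicate 2, where the median deviations of the genes were 0.06 and -0.42. The part of these controls in the differences of the plastid genes was not tested.

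**Figure D2:**
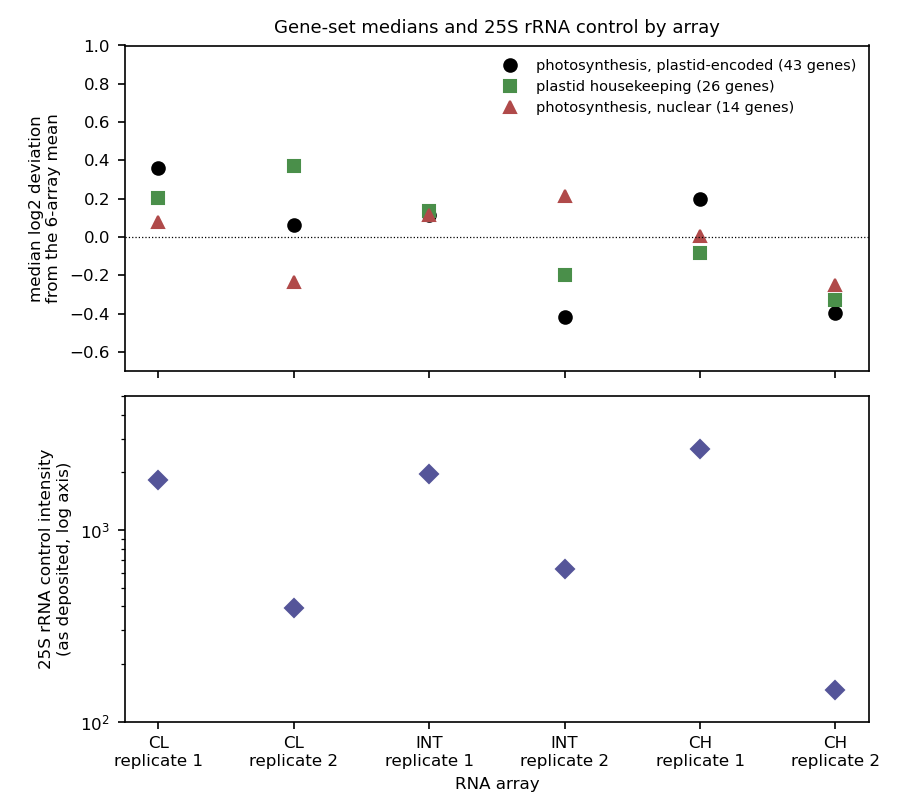
Upper panel, median log2 deviation from the 6-array mean by RNA array for the 43 plastid-encoded photosynthesis genes, 26 plastid housekeeping genes and 14 nuclear photosynthesis genes. Lower panel, deposited intensity of the 25S ribosomal RNA control on a log axis, from 145.9 on CH replicate 2 to 2652 on CH replicate 1.

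Photosystem I was measured by 5 genes, of which 3 had a higher mean in CL than in CH, with a median difference of 0.32. The median was -0.19 without CH replicate 2. Of these 5 genes, 4 had a higher mean in CL than in INT, with a median of 0.50 that turned to -0.05 without INT replicate 2 and to -0.01 without CL replicate 1, and 2 had a higher mean in INT than in CH, with a median of -0.30, or -0.002 without INT replicate 2. psaJ, a small membrane subunit, had log2 intensities of 12.83 and 12.95 in CL, 12.03 and 11.76 in INT, and 12.17 and 12.21 in CH. Its mean was 12.89 ± 0.09 in CL, 11.89 ± 0.19 in INT and 12.19 ± 0.03 in CH (SD, n = 2 each). Both CL arrays lay above the other 4, and the arrays of each flower type were close to each other. psaJ differed by 0.70 between CL and CH (95% interval from 0.24 to 1.16) and by 1.00 between CL and INT (from 0.54 to 1.45). Leaving out single arrays kept these differences between 0.65 and 0.75 and between 0.86 and 1.13. They had the lowest p-values of the 43 genes in CL against CH and in CL against INT, yet limma's adjusted p over all probe sets was 0.9999 and 0.985.

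The other photosystem I genes varied more within a flower type. psaA and psaB encode the paired reaction centre core. psaA had 12.65 and 12.18 in CL, 12.47 and 11.36 in INT, and 12.61 and 12.32 in CH, with INT replicate 2 the low array. Its INT minus CH difference was -0.55 (interval from -1.39 to 0.29), and without INT replicate 2 it was -0.002. psaB had 14.72 and 14.77 in CL, 15.28 and 14.50 in INT, and 14.72 and 14.13 in CH, and the 3 flower types overlapped. psaC, which holds the terminal iron-sulfur clusters, had 10.31 and 7.56 in CL, 8.57 and 8.09 in INT, and 10.38 and 8.50 in CH. Its CL gap of 2.75 was the largest among the 43 genes in any flower type. psaI, another small membrane subunit, ranged from 11.13 on CH replicate 2 to 12.86 on CH replicate 1.

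Photosystem II was measured by 15 genes, and 12 had a higher mean in CL than in CH, with a median difference of 0.43. That median turned to -0.45 with CH replicate 2 left out and was 1.38 with CH replicate 1 left out. psbZ, a small subunit at the edge of the core, had 12.78 and 13.56 in CL, 12.83 and 11.50 in INT, and 12.80 and 10.60 in CH. The replicate 1 arrays of the 3 flower types were alike, and the replicate 2 arrays were not. Its CL minus CH difference of 1.47 (interval from -0.18 to 3.11) was the largest of the 43 and stood at 0.36 without CH replicate 2. psbA, which encodes the reaction centre protein that is replaced most often under light, had 13.06 and 10.65 in CL, 11.19 and 10.60 in INT, and 12.75 and 10.10 in CH. Its gaps of 2.42 in CL and 2.66 in CH were larger than its CL minus CH difference of 0.43.

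psbH, a phosphorylated subunit needed for assembly of the complex, had 12.86 and 13.47 in CL, 12.63 and 12.39 in INT, and 12.51 and 13.25 in CH. Both CL arrays were above both INT arrays, a difference of 0.65 (interval from -0.09 to 1.401), and the CH arrays overlapped those of CL. Its INT minus CH difference of -0.37 became 0.008 without CH replicate 2. psbM, a small subunit at the interface of the dimer, had 15.10 and 15.32 in CL, 15.38 and 14.72 in INT, and 15.67 and 15.38 in CH. It was the 1 gene of the 43 with both CL arrays below both CH arrays, against 14.8% of all probe sets, and is named for that reason, chosen with its values known. The core antenna genes psbB and psbC and the reaction centre gene psbD had CL minus CH differences of 0.97, 0.41 and -0.08. None of the 3 passed the test, and the CL and CH arrays overlapped in each. Between CL and INT, 13 of the 15 photosystem II genes had a higher mean in CL, with a median difference of 0.45, or 0.11 without CL replicate 1, 0.16 without INT replicate 2 and 0.77 without INT replicate 1. Between INT and CH, 9 had a higher mean in INT, with a median of 0.10 that turned to -0.65 with CH replicate 2 left out and to 0.81 with CH replicate 1 left out.

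The photosystem II genes split by which array of a flower type was brighter. In CL and CH, psbB, psbT and psbH were brighter on replicate 2, and psbA, psbC, psbD, psbE, psbF, psbI, psbJ, psbK, psbL and psbN on replicate 1, while psbZ and psbM took opposite sides in CL and CH. psbB had 10.97 and 12.42 in CL, 11.44 and 10.76 in INT, and 10.38 and 11.07 in CH, with CL replicate 2 the one array apart. psbC had 13.18 and 12.13 in CL, 13.08 and 11.97 in INT, and 13.26 and 11.22 in CH, so that the replicate 1 arrays of all flower types lay within a narrow range above the replicate 2 arrays. In INT all 15 genes were brighter on replicate 1. The genes not given by array, psbF, psbI, psbJ, psbK, psbL and psbT among them, had CL minus CH differences from -0.26 (psbJ) to 0.85 (psbI).

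The cytochrome b6f complex was measured by 6 genes, of which 5 had a higher mean in CL than in CH and 6 a higher mean in INT than in CH. The median differences were 0.46 in both comparisons, which share the CH arrays, and they stood at 0.03 and -0.06 without CH replicate 2. petG, a small subunit that the complex needs for stability, had 9.76 and 9.80 in CL, 9.88 and 9.62 in INT, and 9.50 and 8.97 in CH. Both CH arrays were the lowest, and the CL minus CH difference was 0.55 (interval from -0.04 to 1.14). It was 0.28 without CH replicate 2. petN, another such small subunit, had 10.16 and 10.26 in CL, 10.40 and 10.18 in INT, and 10.03 and 9.63 in CH. It differed by 0.45 between INT and CH (interval from -0.05 to 0.96), or by 0.25 without CH replicate 2.

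petL, a small subunit that helps hold the dimer together, had 9.85 and 9.62 in CL, 9.37 and 9.32 in INT, and 10.23 and 7.54 in CH. Its CL minus INT difference was 0.39 (interval from -1.29 to 2.07), and the 2 CH arrays lay on either side of the other 4. petB, which encodes cytochrome b6, had 15.60 and 14.95 in CL, 15.17 and 15.10 in INT, and 15.22 and 15.03 in CH, and the flower types overlapped. petA, which encodes cytochrome f, lay between 13.51 and 13.60 on 5 arrays and at 12.45 on CH replicate 2. petD, for subunit IV, was highest on CL replicate 1 and lowest, at 8.17, on CL replicate 2.

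**Figure D3:**
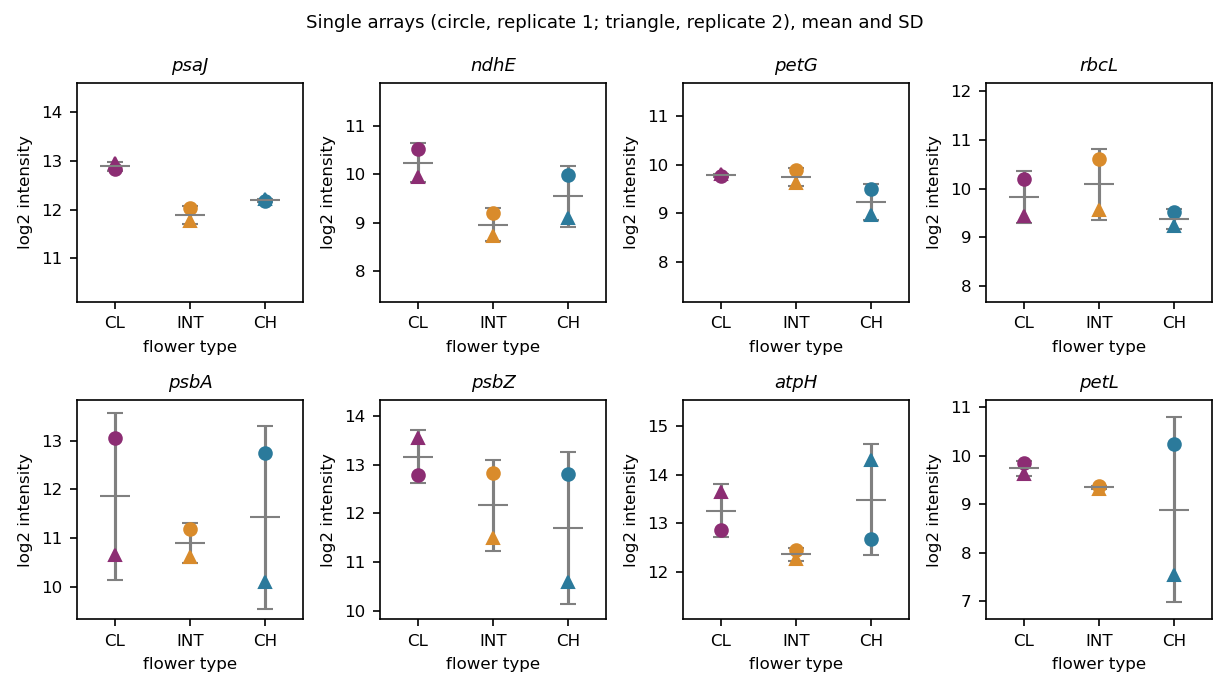
Log2 intensity of 8 genes on single arrays by flower type, with circles for replicate 1, triangles for replicate 2, a bar for the mean of the 2 arrays and whiskers for the SD. Every panel spans the same number of log2 units. Arrays of a flower type were close for psaJ and up to 2.69 apart for petL in CH.

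The ATP synthase was measured by 6 genes, of which 5 had a higher mean in CL than in CH, 5 a higher mean in CL than in INT and 2 a higher mean in INT than in CH. The median differences were 0.24, 0.44 and -0.27. The CL minus INT median was 0.27 without INT replicate 2 and 0.56 without CL replicate 1. Without CH replicate 1 the CL minus CH median was -0.06 and without CH replicate 2 it was 0.58, and the INT minus CH median turned to 0.06 without INT replicate 2 and 0.09 without CH replicate 2. CH replicate 1 was the higher CH array for 1 of its 6 genes and equal to CH replicate 2 for 1, against 51.7% of all probe sets, and 3 of the 4 genes brighter on CH replicate 2 (atpI, atpH and atpF) share a transcription unit. CH replicate 1 was the higher CH array in 12 of 15 photosystem II genes and 8 of 10 NDH genes, and the difference between complexes was not tested. atpH, the ring subunit that protons turn, had 12.87 and 13.64 in CL, 12.46 and 12.26 in INT, and 12.67 and 14.30 in CH. Both INT arrays were below the other 4, and the INT minus CH difference was -1.13 (interval from -2.30 to 0.04), or -0.32 without CH replicate 2 and -1.90 without CH replicate 1.

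atpB, the catalytic beta subunit, had 14.77 and 14.99 in CL, 14.66 and 14.39 in INT, and 14.23 and 14.77 in CH. It differed by 0.38 between CL and CH (interval from -0.46 to 1.23), and by 0.11 without CH replicate 1 and 0.63 without CH replicate 2. atpF, part of the peripheral stalk of the enzyme, had 11.02 and 11.31 in CL, 10.73 and 10.56 in INT, and 10.58 and 11.36 in CH. Both CL arrays were above both INT arrays, by 0.52 on average (interval from -0.11 to 1.15). atpA, the alpha subunit, had 14.99 and 14.79 in CL, 14.79 and 14.41 in INT, and 14.81 and 14.81 in CH. atpI, the membrane subunit next to the ring, had 7.26 and 9.30 in CL, 7.95 and 6.51 in INT, and 7.11 and 8.51 in CH, so that no flower type stood apart.

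The NDH complex was measured by 10 genes, of which all 10 had a higher mean in CL than in INT, with a median difference of 0.37, and 9 a higher mean in CL than in CH, with a median of 0.30. Without CL replicate 1 these medians were 0.02 and -0.10. The CL minus INT median was 0.16 without INT replicate 2, and the CL minus CH median was 0.06 without CH replicate 2. The CL minus INT median was 0.77 with CL replicate 2 left out and 0.70 with INT replicate 1 left out, and without CH replicate 1 the CL minus CH median was 0.60. ndhE, a small membrane subunit, had 10.52 and 9.95 in CL, 9.20 and 8.73 in INT, and 9.99 and 9.10 in CH. Both CL arrays were above both INT arrays, and the CH arrays reached into both. The CL minus INT difference of ndhE was 1.27 (interval from 0.44 to 2.11), the largest of the 43 in that comparison, with an adjusted p of 0.985 from limma. It was 1.00 with CL replicate 1 left out and 1.54 with CL replicate 2 left out.

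ndhE differed from CH by 0.69 in CL (interval from -0.14 to 1.53) and by -0.58 in INT (interval from -1.41 to 0.25). Without CH replicate 2 these were 0.25 and -1.01, and without CH replicate 1 they were 1.15 and -0.14. ndhC, a membrane subunit, had 14.26 and 13.87 in CL, 13.88 and 13.77 in INT, and 14.03 and 13.74 in CH, a narrow range. ndhD, one of the large membrane subunits, had 11.56 and 10.36 in CL, 10.82 and 10.52 in INT, and 11.67 and 9.79 in CH, with both CH arrays outside the range of the INT arrays. Between INT and CH, 2 of the 10 NDH genes had a higher mean in INT, ndhA and ndhH, with a median difference of -0.12. That median turned to 0.04 without INT replicate 2 and to 0.11 without CH replicate 1, and was -0.36 without INT replicate 1 and -0.28 without CH replicate 2. ndhA, ndhG, ndhI and ndhK had CL minus INT differences of 0.21, 0.41, 0.36 and 0.38. For ndhF no difference is given, since both INT arrays and CL replicate 2 were under the offset, and its higher mean in CL came from CL replicate 1. ndhJ had 7.35 and 5.76 in CL, 6.01 and 5.73 in INT, and 6.14 and 6.17 in CH, with CL replicate 1 the one high array and CL replicate 2 and INT replicate 2 under the offset. ndhH had 5.84 and 7.51 in CL, 7.11 and 5.98 in INT, and 6.68 and 5.91 in CH, and CL replicate 1 was the lowest of its 6 arrays.

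rbcL, for the large subunit of Rubisco, had 10.20 and 9.44 in CL, 10.61 and 9.56 in INT, and 9.52 and 9.23 in CH. Both INT arrays were above both CH arrays, though INT replicate 2 only by 0.04. The INT minus CH difference was 0.71 (interval from -0.20 to 1.61) and was 0.18 without INT replicate 1 and 1.23 without INT replicate 2. The CL minus CH difference was 0.44 (interval from -0.46 to 1.35), or 0.06 once CL replicate 1 was left out and 0.81 once CL replicate 2 was. The CL minus INT difference was -0.26 (interval from -1.17 to 0.64) and turned to 0.26 without INT replicate 1 and 0.11 without CL replicate 2.

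**Figure D4:**
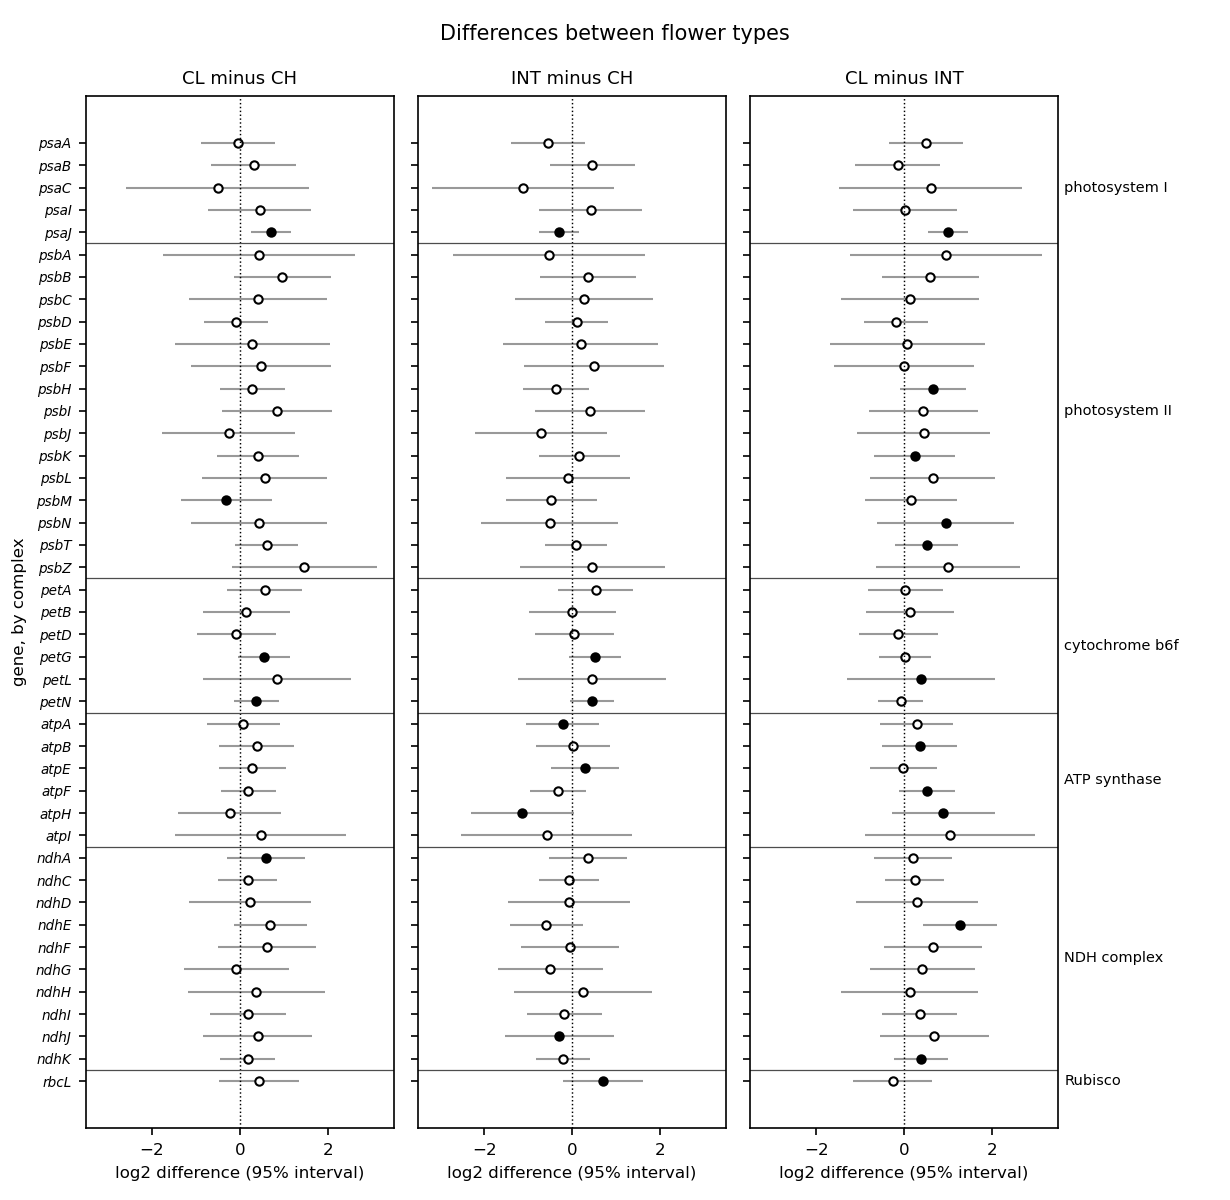
Fitted log2 difference of each of the 43 genes with its 95% interval in the 3 comparisons, by complex. Filled points mark genes whose 2 arrays per flower type do not overlap, 5 in CL against CH, 8 in INT against CH and 11 in CL against INT, where the share over all probe sets was 28.7%, 34.2% and 33%.

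For both arrays of a flower type to lie above both of another is by definition stricter than a higher mean. Both CL arrays were above both CH arrays in 4 genes, psaJ, petG, petN and ndhA, chosen with their values known, against 13.9% of all probe sets. With median scaling that count was 13, and with the values as deposited it was 7. The share of 13.9% holds for quantile normalization only. Shares over all probe sets were not counted under the other settings, so these counts cannot be set against it. Both INT arrays were above both CH arrays in 4 genes (16.4% of all probe sets) and below in 4 (17.8%). With median scaling 1 was below, again without a share over all probe sets. Both CL arrays were above both INT arrays in 11 genes, against 17% of all probe sets, and below in 0, against 16%. The 11 were psaJ, psbH, psbK, psbN, psbT, petL, atpB, atpF, atpH, ndhE and ndhK. By complex, 4 belong to photosystem II, 3 to the ATP synthase, 2 to the NDH complex and 1 each to photosystem I and cytochrome b6f.

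The gap between the 2 arrays of a flower type was similar within some transcription units and not within others. In INT 42 of the 43 genes share one sign, so like signs within a unit there carry little information. The unit psbE-psbF-psbL-psbJ encodes both subunits of cytochrome b559 and a pair of small photosystem II subunits. Replicate 1 was above replicate 2 in CL by 1.36 for psbE, 0.91 for psbF, 0.56 for psbL and 1.07 for psbJ. In INT these gaps were 1.33, 0.53, 0.92 and 1.69, and in CH they were 2.198, 2.32, 2.03 and 1.22. All these gaps had the same sign. Over the 43 genes the median gap was 0.39 in CL, 0.47 in INT and 0.58 in CH.

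The unit psbB-psbT-psbH-petB-petD joins photosystem II genes to genes of the cytochrome b6f complex. In CL, the replicate 1 minus replicate 2 gaps were -1.45 for psbB, -0.72 for psbT and -0.62 for psbH, against 0.65 for petB and 0.83 for petD. In CH they were -0.69, -0.66 and -0.74, against 0.18 for petB and 0.58 for petD. In INT, psbB, psbT and psbH had gaps of 0.68, 0.24 and 0.24, and petB and petD of 0.07 and -0.08. The first 3 genes of this unit thus shared a sign in CL and in CH, and the last 2 had the opposite sign there. In CL and in INT the gap of psbB was larger in size than those of psbT and psbH. psbN, an assembly gene that lies on the opposite strand between psbT and psbH, had gaps of 1.38 in CL, 0.20 in INT and 1.93 in CH.

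In the unit atpI-atpH-atpF-atpA the gaps were -2.03, -0.77, -0.28 and 0.20 in CL, in the order of the genes. In CH they were -1.3996, -1.62, -0.78 and 0, and in INT 1.44, 0.20, 0.17 and 0.38. atpA at the end of the unit had the smallest gap in CL and in CH. Its gap of 0 in CH means equal rank on both arrays, since quantile normalization gives equal ranks equal values, and its deposited intensities there were 30304 and 26767. The unit with the most genes, ndhH-ndhA-ndhI-ndhG-ndhE-psaC-ndhD, was mixed. In CL its gaps were -1.66, -0.05, 0.75, 0.82, 0.57, 2.75 and 1.19 in the order of the genes, so that ndhH and psaC were the farthest apart. The ndhH signal on CL replicate 1 was close to the offset. In CH all 7 were above 0, from 0.72 for ndhA to 1.89 for ndhD, and in INT from 0.30 for ndhD to 1.12 for ndhH. Other units were mixed too: psbZ had a CL gap of -0.78 beside psbC at 1.05 and psbD at 0.63, and petL had a CH gap of 2.69 beside petG at 0.53 and psaJ at -0.04. Grouping by unit is background knowledge of Arabidopsis, and transcripts of the units were not separated on the array.

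**Figure D5:**
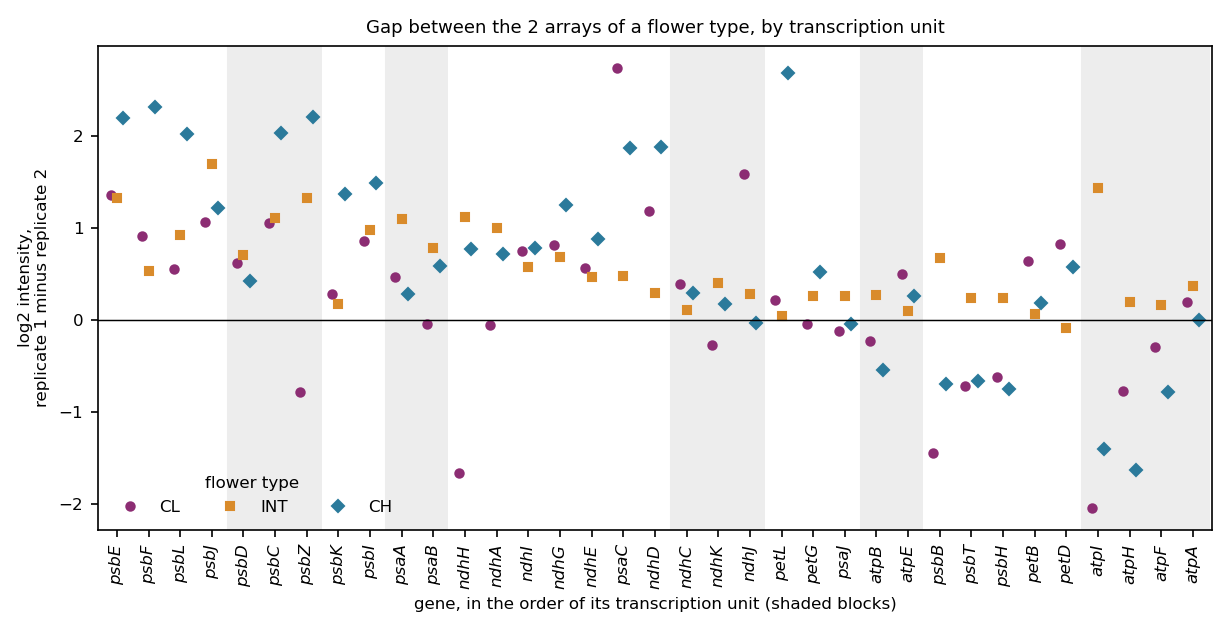
Log2 intensity on replicate 1 minus replicate 2 for genes of 10 plastid transcription units, with circles for CL, squares for INT and diamonds for CH. Genes of psbE-psbF-psbL-psbJ lay above 0 in all 3 flower types, and psbB, psbT, psbH, atpI, atpH and atpF lay below 0 in CL and CH.

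Of a list of 125 nuclear photosynthesis genes, 14 were matched by symbol. They were PSAE-1, PSAN, PSBW, PSBY, ATPC1 and ATPC2, which encode subunits, the antenna genes LHCB4.1, LHCB4.2 and LHCB4.3, RCA, and CRR21, PGRL1B, HCF101 and CCB3, which act in editing, cyclic electron flow or assembly. Of these 14, 9 had a higher mean in CL than in CH, 11 a higher mean in INT than in CH and 4 a higher mean in CL than in INT, with median differences of 0.10, 0.25 and -0.15. limma called 0 of the 14 in each comparison at an adjusted p under 0.05, against 0% of all probe sets. At an unadjusted p under 0.05 limma counted 0 in CL against CH (3.53% of all probe sets), 1 in INT against CH (4.76%) and 2 in CL against INT (4.4%). RCA, which encodes Rubisco activase, had 11.33 and 11.05 in CL, 12.10 and 12.03 in INT, and 10.54 and 11.49 in CH. In CL against INT it differed by -0.88, while rbcL differed by -0.26 and 36 of the 43 plastid genes had a higher mean in CL. The 26 plastid housekeeping genes had 22 higher means in CL than in CH, 14 in INT than in CH and 18 in CL than in INT. Their medians were 0.31, 0.03 and 0.35. They include ycf3, ycf4 and ccsA, which act in assembly, so this list is not free of genes related to photosynthesis. No test of the difference between these lists and the 43 genes was made.

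Cell type markers were few. Of 14 leaf mesophyll markers 2 were named (RCA and PRK), and their summed deposited intensity was 3385 and 2681 in CL, 5095 and 4368 in INT, and 2159 and 3680 in CH. The 2 genes went opposite ways. RCA had a higher mean in INT than in CH, by 1.06 log2 units, and PRK, which encodes phosphoribulokinase of the Calvin cycle, differed by -0.71, with log2 intensities of 9.95 and 9.05 in CL, 9.29 and 8.57 in INT, and 9.60 and 9.67 in CH. Of 18 inflorescence and floral meristem markers 3 were named (UFO, CLV3 and AGL24), summing to 421.5 and 1073 in CL, 785.7 and 676.6 in INT, and 897.5 and 894.4 in CH. In CL against CH they differed by -1.09, 1.03 and -0.09 log2 units, so UFO and CLV3 went opposite ways. Of 10 tapetum and pollen markers 3 were named (AMS, AGL66 and AGL104), summing to 684.8 and 351.3 in CL, 510.9 and 701.2 in INT, and 289.1 and 415.6 in CH. In CL against INT they differed by -0.60, 0.57 and -0.28 log2 units, so their directions were mixed there. In INT against CH they differed by 0.92, 0.43 and 0.14, with all 3 higher in INT. In CL against CH they differed by 0.31, 1.00 and -0.14. limma called 0 of the 3 in each comparison. Of 6 root markers 1 was named, EXPA7, at 520.7 and 275.7 in CL, 324.4 and 325.6 in INT, and 134.6 and 205.6 in CH. The part of these cell types in the differences of the plastid genes was not tested.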

How the data were processed

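The table gave intensities per probe set for 7 ATH1 arrays, of which 6 carried RNA and 1 carried genomic DNA. Hybridization of genomic DNA was used by the authors to calibrate the RNA values, following Hammond and colleagues, per the labels. The deposited intensity values are linear, and each array had a mean of 500 when 2% of probe sets at either end were trimmed. How probes were summarized is not given in the sources used here. Arrays have no read depth, and their number limits the precision.

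Control probe sets, 64 in all, were removed first. Values were log2(intensity + 28.2), the offset being 10% of the median RNA intensity, and were quantile normalized because array medians ranged over 0.19. limma 3.58.1 in R 4.3.3 fitted the 6 RNA arrays by flower type, with eBayes and a trend, and p-values were adjusted (Benjamini-Hochberg) over all 22746 probe sets. Tests were two-sided. The fit was tested on simulated data. Figures used matplotlib 3.10.9.

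The genes, lists and units were chosen with earlier results of these data known, so lists are described and not tested. Named genes were, per complex, those with the lowest p in each comparison, the highest mean and the largest gap between arrays. Levels are n = 2 per flower type. Alternatives were other normalizations, offsets, filters, variance models and samples.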

Additional observations from a re-analysis of the deposited data

How the results depend on the processing

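limma called 0 of the 43 genes and 0 of all probe sets in each of the 3 comparisons under every alternative run, replicate block included, and a count that starts at 0 in a comparison of 2 arrays with 2 says nothing about stability. Other normalizations, offsets and a filter on RNA level left the median difference of the 43 genes between 0.34 and 0.43 in CL against CH, between 0.01 and 0.05 in INT against CH and between 0.32 and 0.37 in CL against INT. With the replicate block the medians were 0.38, 0.01 and 0.36, equal to those without it by construction, since each flower type has 1 array of each number. The variance model and the fit of only the 4 arrays compared cannot move a mean difference either, and the filter on genomic DNA level kept all 43 genes. The replicate 1 minus replicate 2 gaps correlated over all probe sets at 0.25 between CL and CH. They correlated at -0.05 between CL and INT and at -0.05 between INT and CH. The labels do not say that equal numbers mark pairs, so the main fit took none. Its estimate of the spread served all 3 comparisons, so the intervals of each include any spread that equally numbered arrays shared. Every gene had 1 probe set, so another choice of probe set was not run. The 22 genes higher on replicate 1 in all 3 flower types were 21 with median scaling and 26 with the values as deposited.

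Leaving out single arrays moved more. Genes with a higher mean ranged from 23 to 38 in CL against CH, from 12 to 28 in INT against CH and from 24 to 42 in CL against INT. In CL against CH the median ranged from -0.19 to 0.60 for photosystem I, -0.45 to 1.38 for photosystem II, 0.026 to 0.70 for cytochrome b6f, -0.057 to 0.58 for the ATP synthase and -0.10 to 0.60 for the NDH complex. In INT against CH it ranged from -0.65 to 0.81 for photosystem II, -0.059 to 0.73 for cytochrome b6f, -0.48 to 0.094 for the ATP synthase, -0.44 to -0.0025 for photosystem I and -0.36 to 0.11 for the NDH complex. In CL against INT it ranged from -0.047 to 0.84 for photosystem I, 0.11 to 0.77 for photosystem II, -0.056 to 0.15 for cytochrome b6f, 0.27 to 0.56 for the ATP synthase and 0.023 to 0.77 for the NDH complex. The median of all 43 ranged from 0.03 to 0.59 in CL against CH, from -0.29 to 0.32 in INT against CH and from 0.05 to 0.64 in CL against INT. rbcL ranged from -0.78 to 0.26 in CL against INT and psbH from -0.74 to 0.0077 in INT against CH. The cause was not tested. Counts of genes without overlap then set 1 array against 2 and are not comparable.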

Other observations

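The probe set shared by both copies of ndhB, a membrane subunit gene of the NDH complex left out because the annotation lists 2 copies, had log2 intensities of 8.69 and 9.07 in CL, 9.15 and 8.73 in INT, and 8.72 and 8.75 in CH. Its differences were 0.14 in CL against CH, 0.20 in INT against CH and -0.06 in CL against INT, while each of the 10 measured NDH genes had a higher mean in CL than in INT.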
